A study of Homo sapiens with 10 samples.

Results

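Histone genes were followed across peak lists of N6-methyladenosine (m6A), the methyl mark on adenosines inside RNA, in V16A cells, a line of castration-resistant prostate cancer. A gene was taken as a member when its name in any of the 7 lists began with HIST1, HIST2, HIST3, HIST4, H1F, H2AF, H2BF or H3F, the older symbols that the lists use. This gave 44 of the 5000 genes named in the lists. They comprised 38 replication-dependent genes, 5 variant genes and 1 pseudogene. They were chosen by having a called peak in at least 1 list, so counts of members with a peak are descriptions and carry no test.

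The assay was MeRIP-seq, in which an antibody to m6A enriches marked RNA fragments for sequencing, and stretches enriched in the pull-down are called as peaks. The 10 samples of total RNA were 5 pull-downs and 5 inputs. The pull-downs were 1 labelled EU 40min, 2 of cells under hypoxia and 2 of cells under normoxia, and the labels neither spell out EU nor give the oxygen condition of that sample. All samples were V16A cells from prostate with no other treatment in the labels, the oxygen level and duration of hypoxia are not stated, and nothing says that replicates came from separate cultures. Each pull-down had its own peak list, and hypoxia and normoxia each had 1 further list, called a condition list below, whose making the sources used here do not give.

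Histones are the proteins around which DNA is wound. The core histones H2A, H2B, H3 and H4 form the nucleosome, and the linker histone H1 binds the DNA entering and leaving it. Replication-dependent histone genes lie in clusters, lack introns in their usual transcripts and are expressed in S phase, and their mRNAs end in a conserved stem-loop in place of a poly(A) tail. Variant histone genes lie outside the clusters, and most, though not all, are expressed through the cell cycle and yield polyadenylated mRNAs alone.

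Under the RefSeq names of GRCh38.p14, 38 of 70 protein-coding replication-dependent histone genes had a peak in at least 1 list. By class these were 4 of 6 H1 genes, 5 of 17 H2A genes, 12 of 18 H2B genes, 11 of 14 H3 genes and 6 of 15 H4 genes. By locus they were 32 of 55 genes of HIST1, the large cluster on chromosome 6, 3 of 11 of HIST2 and 2 of 3 of HIST3, both on chromosome 1, and the 1 gene of HIST4 on chromosome 12. By these names H2A had the smallest share listed and H3 the largest. Peaks on the spans of HIST1H2AD and HIST1H2AM are listed under other names, and with them 7 of 17 H2A genes had a peak, beside the 6 of 15 H4 genes. Of 19 variant genes 5 were listed, and which of the 19 these cells express was not measured. The genes of the replacement histone H3.3, H3F3A and H3F3B, and of the variant H2A.Z.1, H2AFZ, had no peak under those names, which does not show that their RNA was unmethylated.

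The lists differed greatly in length, and that bears on every count that follows. The EU library had 5044 peaks, hypoxia replicates 1 and 2 had 2879 and 6621, and normoxia replicates 1 and 2 had 212 and 1563. Read depth is unknown, because the lists hold peaks past a threshold only. With 2 libraries against 2 an exact two-sided permutation test cannot give a p below 0.333, so no gene was tested between hypoxia and normoxia.

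Peaks in histone genes numbered 17 in the EU library, 45 in each hypoxia library and 12 in each normoxia library. As a share of each list they were 0.337% in the EU library (exact binomial 95% interval 0.196 to 0.539, counting error only), 1.56% (1.14 to 2.09) and 0.68% (0.496 to 0.908) in hypoxia replicates 1 and 2, and 5.66% (2.96 to 9.68) and 0.768% (0.397 to 1.34) in normoxia replicates 1 and 2. The shares of the hypoxia libraries therefore lay between those of the normoxia libraries in 1 case and below both in the other. The shortest list, normoxia replicate 1, had the largest histone share.

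Shortening each library to its 212 peaks of smallest p gave shares of 2.36% in the EU library, 5.66% in both hypoxia libraries, 5.66% in normoxia replicate 1 and 2.36% in normoxia replicate 2. At equal list length the hypoxia libraries thus had the share of normoxia replicate 1 and a larger one than normoxia replicate 2. Histone peaks stood among the 10 first peaks of a list 3 times in the EU library, 5 times in each hypoxia library, 4 times in normoxia replicate 1 and not at all in normoxia replicate 2. The EU count rests on ties, since 11 EU peaks, 3 of them in histone genes, have a p listed as 0.

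**Figure D1:**
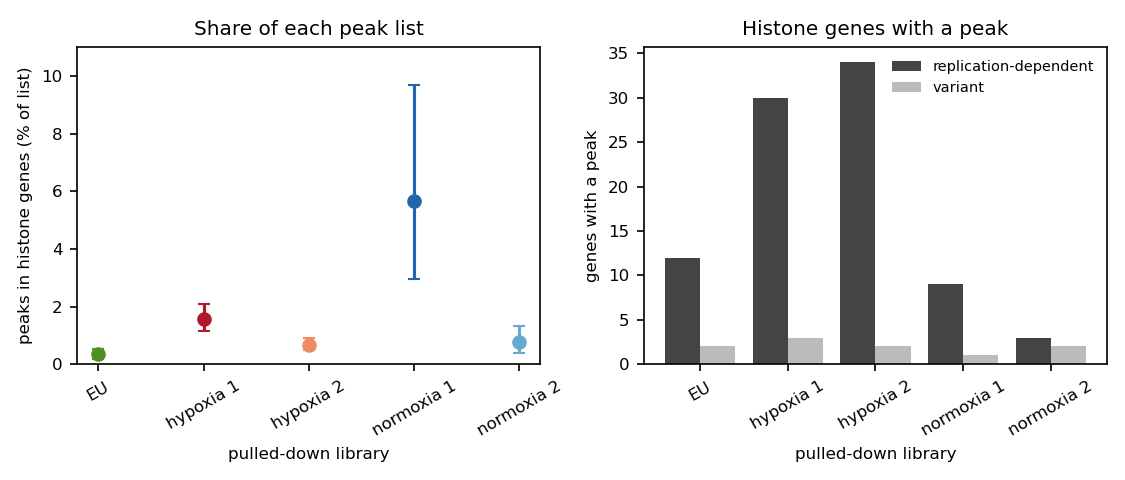
Share of each pulled-down library's peaks that lie in histone genes, in percent with exact binomial 95% intervals (left), and number of replication-dependent and variant histone genes with a peak (right). Normoxia replicate 1, with 212 peaks, has the largest share, 5.66%, while the hypoxia libraries have the most replication-dependent genes, 30 and 34.

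Replication-dependent genes with a peak numbered 12 in the EU library, 30 and 34 under hypoxia, and 9 and 3 under normoxia. Variant genes with a peak numbered 2 in the EU library, 3 and 2 under hypoxia, and 1 and 2 under normoxia. Both hypoxia libraries held peaks in 26 of the 38 replication-dependent genes (68.4%) and in 2 of the 5 variant genes, against 21.1% of all genes with a peak under hypoxia or normoxia. Outside HIST1 no replication-dependent gene had a peak in the EU library or a normoxia library, against 3 in hypoxia replicate 1 and 5 in hypoxia replicate 2.

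Hypoxia-only is used for genes listed in each of the hypoxia libraries and absent from each of the normoxia libraries. Among the 3226 genes with a peak in these 4 libraries, 15.3% were hypoxia-only, and among the 42 histone genes there 20 were (47.6%). No histone gene was normoxia-only, where 0.155% of all genes were. These 20 were 19 replication-dependent genes and the variant H2AFV. By class they were 2 of 4 H1 genes, 4 of 5 H2A genes, 8 of 12 H2B genes, 3 of 11 H3 genes and 2 of 6 H4 genes. A looser call, a peak in at least 1 hypoxia library and in no normoxia library, took in 31 of 42 histone genes (73.8%), close to the 69.2% of all genes.

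Histone genes and all genes thus differed in the share that both hypoxia libraries listed. Both had a peak in 28 of 42 histone genes (66.7%) and in 21.1% of all genes. Both normoxia libraries had a peak in 4 of 42 (9.52%) and in 1.27% of all genes, so the share listed by both replicates was above that of all genes in each condition. All 4 libraries had a peak in 3 of 42 (7.14%), H2AFX, HIST1H3H and HIST1H4I, against 0.62% of all genes. Without hypoxia replicate 1, 27 histone genes (71.1%) had a peak in hypoxia and none in normoxia, against 63.7% of all genes, and without hypoxia replicate 2, 24 (68.6%) against 49.5%. Without normoxia replicate 1 the hypoxia-only count was 25 (59.5%) against 16.8% of all genes, and without normoxia replicate 2 it was 20 (48.8%) against 22.3%. In the condition lists 31 histone genes (75.6%) had a peak under hypoxia alone, against 62.8% of all genes, and 3 (7.32%) under normoxia alone, against 20.3%, and 7 (17.1%) under both, against 16.9%. With the first 50% of each list by p, 9 of 33 histone genes were hypoxia-only (27.3%), against 9.1% of all genes, and 8 of these 9 were among the 20, HIST1H2BF being the other. With each list shortened to 212 peaks, 2 of 23 were (8.7%), HIST1H1D and HIST1H2BL, against 3.13% of all genes.

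**Figure D2:**
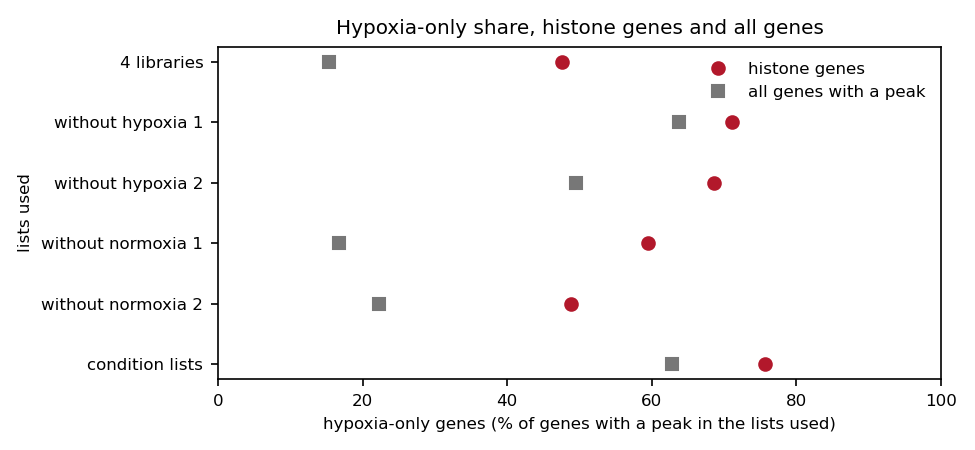
Percent of genes called hypoxia-only among histone genes (circles) and among all genes with a peak (squares), with all 4 libraries, without each library in turn and in the condition lists. The histone share lies above that of all genes in each setting drawn, by the least in the condition lists and without hypoxia replicate 1, where 1 list stands for hypoxia.

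Markers of another cell type, T and NK cells, were listed in larger numbers in the EU and hypoxia libraries than in the normoxia libraries. The EU and hypoxia lists were also longer, and the part that length had in this was not tested. All genes listed numbered 2389 in the EU library, 1258 and 2151 in hypoxia replicates 1 and 2, and 139 and 897 in normoxia replicates 1 and 2. Of 14 T and NK cell markers, 11 were listed in the EU library, 9 and 11 in hypoxia replicates 1 and 2, and 4 and 0 in normoxia replicates 1 and 2, CD3D and CD3E among those with a peak in the EU and both hypoxia libraries. Of 12 prostate and epithelial markers, 8 were listed in the EU library, 2 and 4 under hypoxia, and 1 and 5 under normoxia. Of 11 T and NK markers with a peak under hypoxia or normoxia, 5 were hypoxia-only, against 15.3% of all genes. Of 6 such prostate and epithelial markers, 0 were. KLK3, which encodes prostate-specific antigen, had a peak in the EU library alone. None of 5 macrophage markers had a peak in any of the 5 libraries, and of 5 fibroblast and endothelial markers only PECAM1 had one, in hypoxia replicate 2. Which cells the histone RNA came from was not tested, and in bulk samples fewer cells of a type and less RNA per cell cannot be told apart.

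**Figure D3:**
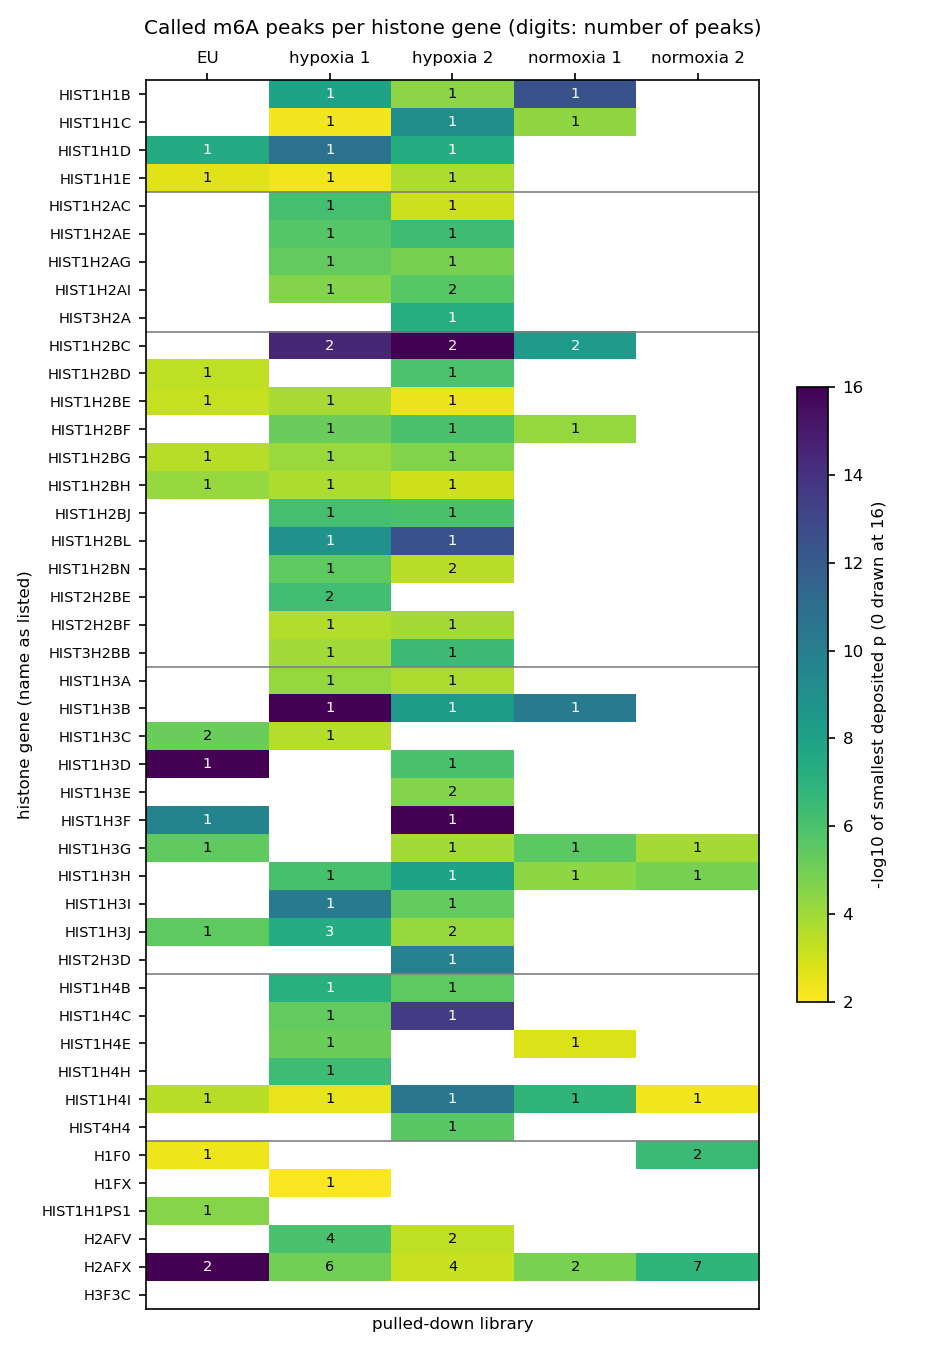
Number of called peaks (digits) and smallest deposited p (colour, −log10 scale, with a p of 0 drawn at 16) for each of the 44 histone genes in the EU, hypoxia and normoxia libraries. Lines part the H1, H2A, H2B, H3 and H4 replication-dependent genes, with variant genes and the pseudogene at the foot. White cells have no peak. HIST1H4I and H2AFX are filled in all 5 columns, and H3F3C, listed in the hypoxia condition list alone, in none.

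Among linker histones, all 4 replication-dependent H1 genes had a peak in both hypoxia libraries, 2 also had one in the EU library and 2 had one in normoxia replicate 1. HIST1H1B, which encodes H1.5, stood at rank 12 in hypoxia replicate 1 (deposited p 1.4e-08) and rank 3868 in hypoxia replicate 2 (3.5e-05), and led normoxia replicate 1 at rank 1 (3.2e-13). Its peak had the same bounds in all of these, chr6:27866946-27867529 on the minus strand of hg38, which is 584 bases or 73.3% of the gene span. HIST1H1D, which encodes H1.3, had 1 peak with the same bounds in the EU library (rank 114, 3.4e-08), hypoxia replicate 1 (rank 5, 1.6e-11) and hypoxia replicate 2 (rank 64, 4.4e-08), and none in normoxia. A rank orders peaks within a list and does not measure how much RNA was methylated.

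HIST1H1C, which encodes H1.2, had p of 9.3e-10 in hypoxia replicate 2, 0.0054 in hypoxia replicate 1 and 4.8e-05 in normoxia replicate 1. HIST1H1E, which encodes H1.4, had p of 0.0024 in the EU library and 0.0048 and 0.00019 in the hypoxia libraries. The linker histone genes thus ranged from the head of a list to its foot, and the 2 hypoxia libraries did not order them alike.

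The 5 H2A genes had peaks in hypoxia libraries alone, 4 in replicate 1 and all 5 in replicate 2. HIST1H2AC, HIST1H2AE, HIST1H2AG and HIST1H2AI were in both, with deposited p between 7.8e-07 and 2.6e-05 in hypoxia replicate 1 and between 4.7e-07 and 0.00089 in hypoxia replicate 2. HIST3H2A had 1 peak, in hypoxia replicate 2 (5.6e-08). H2A was the replication-dependent class with no listed peak in the EU and normoxia libraries, with the exception described below of a peak on HIST1H2AD that the lists give under another name.

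Of 12 H2B genes, 4 were listed in the EU library, 11 in each hypoxia library, 10 of them in both, 2 in normoxia replicate 1 and none in normoxia replicate 2. HIST1H2BC stood at rank 2 in hypoxia replicate 1 (3.2e-15), rank 2 in hypoxia replicate 2 (listed as 0) and rank 3 in normoxia replicate 1 (3.8e-09). It had 2 overlapping peaks in each of these libraries, which covered bases 1 to 346 and 1 to 334 of the gene in the hypoxia libraries and bases 144 to 346 in normoxia replicate 1. The stretch covered under normoxia lay within that of hypoxia replicate 1. HIST1H2BL, at rank 7 in both hypoxia libraries (1.4e-09 and 3.2e-13), had no peak in the EU or normoxia libraries.

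HIST1H2BE, HIST1H2BF, HIST1H2BG and HIST1H2BH had peaks in both hypoxia libraries and in 1 other library. HIST1H2BE, HIST1H2BG and HIST1H2BH had the further peak in the EU library, with p between 6.5e-05 and 0.00062, and HIST1H2BF had it in normoxia replicate 1 (6.3e-05). The peak of HIST1H2BH had the same bounds in the EU and both hypoxia libraries, from base 87 to base 381. HIST1H2BG differed in place, since its hypoxia peaks began at base 46 of the gene and its EU peak lay at bases 640 to 986, past the end of a gene of 489 bases.

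Of 11 H3 genes, 5 were listed in the EU library, 6 and 10 under hypoxia, and 3 and 2 under normoxia. HIST1H3B was first in hypoxia replicate 1 (listed as 0), at rank 26 in hypoxia replicate 2 (4.5e-09) and at rank 2 in normoxia replicate 1 (6.3e-11), each time with the bounds chr6:26031741-26032060 on the minus strand. HIST1H3F had 1 peak with the same bounds in the EU library (rank 24, 2.1e-10) and hypoxia replicate 2 (rank 3, listed as 0). HIST1H3D was at rank 8 in the EU library (listed as 0) and rank 909 in hypoxia replicate 2 (9.1e-07). The leading H3 gene thus differed between libraries.

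HIST1H3G and HIST1H3H were the H3 genes with a peak under their own names in both normoxia libraries. HIST1H3D also had a peak on its span in every one of the 5 libraries when those listed as RP1-34B20.21 are counted. The HIST1H3H peak ran from base 63 to base 459 of the gene in both hypoxia libraries (8.7e-07 and 1.4e-08) and from base 311 to base 410 in both normoxia libraries (4.3e-05 and 1.3e-05). It therefore covered 81.7% of the gene in each hypoxia library and 20.6% in each normoxia library, inside the hypoxia stretch. The condition lists did not show this narrowing, with 81.7% covered under hypoxia and 71.6% under normoxia, there from base 63 to base 410. HIST1H3G had a peak in the EU library (3.6e-06), hypoxia replicate 2 (0.00012) and normoxia replicates 1 and 2 (3e-06 and 0.00013), and none in hypoxia replicate 1. Its covered share was 67.9% in the EU library, 77.8% in hypoxia replicate 2, and 58.1% and 29.8% in the normoxia libraries. In both condition lists HIST1H3G had a covered share of 77.8%.

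HIST1H3I was hypoxia-only (6.3e-11 and 4.9e-06), with 1 peak of the same bounds in both libraries. HIST1H3J had peaks in the EU library (3.5e-06) and both hypoxia libraries (4.6e-08 and 6.9e-05). Part of what is listed as HIST1H3J in the hypoxia libraries lay upstream of that gene, on the span of its neighbour HIST1H2AM on the same strand.

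Of 6 H4 genes, 1 was listed in the EU library, 5 and 4 under hypoxia, and 2 and 1 under normoxia. HIST1H4I was the only replication-dependent gene with a peak under its own name in all 5 libraries, at p of 3e-04 in the EU library, 0.0032 and 3.2e-11 in hypoxia replicates 1 and 2, and 1.5e-07 and 0.0047 in normoxia replicates 1 and 2. It covered 75.3% of the gene in the EU library, 62.7% and 87.9% under hypoxia, and 75.3% and 37.8% under normoxia. The covered shares of hypoxia and normoxia overlapped, and p ranks peaks within a list only. HIST1H4C, at rank 5 in hypoxia replicate 2 (3.2e-14) and rank 740 in hypoxia replicate 1 (4.4e-06), had the same peak of 146 bases in both and none elsewhere among the libraries.

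Among variant genes, H2AFX, which encodes the H2A.X that is phosphorylated beside DNA double-strand breaks, was the only one with a peak in all 5 libraries. It lies at chr11:119093874-119095465 on the minus strand, a span of 1592 bases. Its deposited p was listed as 0 at ranks 1 and 2 of the EU library, was 1e-05 and 0.00069 at best under hypoxia, and 1.6e-05 and 1.5e-07 under normoxia. In the EU library 11 peaks have a p listed as 0, so the ranks among them are ties. The peaks covered 1253 bases (78.7%) in the EU library, 688 (43.2%) and 1162 (73%) under hypoxia, and 215 (13.5%) and 908 (57%) under normoxia. Coverage overlapped between hypoxia and normoxia, in lists of unlike length, and p ranks peaks within a list only. Nothing about a difference between the conditions is therefore read from this gene. Since overlapping peaks are listed apart, its peak numbers, 2 in the EU library, 6 and 4 in hypoxia, and 2 and 7 in normoxia, count some bases more than once.

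**Figure D4:**
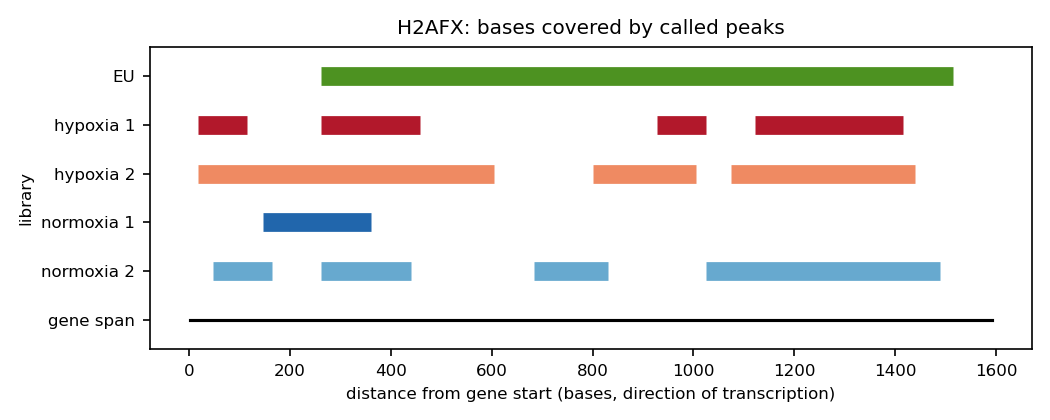
Stretches of H2AFX covered by called peaks in the EU, hypoxia and normoxia libraries, by distance in bases from the gene start, with overlapping peaks merged and the gene span of 1592 bases below. The EU library has 1 unbroken stretch from base 262 to base 1514, and normoxia replicate 1 has 1 short stretch from base 146 to base 360.

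H2AFV, which encodes the H2A.Z.2 variant, was hypoxia-only, with 4 peaks in hypoxia replicate 1 (smallest p 1e-06) and 2 in hypoxia replicate 2 (0.00044). In these libraries its peaks lay between bases 18487 and 20836 of a gene of 21238 bases, near the 3′ end. The hypoxia condition list also had an H2AFV peak at bases 13574 to 13674. H1F0, which encodes the H1.0 of differentiated cells, had the reverse pattern in part, with 1 peak in the EU library (0.0044), none in hypoxia, none in normoxia replicate 1 and 2 in normoxia replicate 2 (3.5e-07 and 8.9e-06). It was the only histone gene with a peak in a normoxia library and in no hypoxia library, a pattern of 15.5% of all genes. H1FX had 1 peak at the foot of hypoxia replicate 1 (0.0083). H3F3C had a peak in the hypoxia condition list (0.0049) and in no library. The pseudogene HIST1H1PS1 was the only histone gene listed in the EU library alone (2.8e-05), 1 of 43 histone genes against 25.4% of the 4327 genes of the 5 libraries.

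Of the 42 histone genes with a peak in the hypoxia or normoxia libraries, 14 (33.3%) were listed in the EU library, against 39.9% of all such genes. The share was near that of all genes, so nothing about the histone genes is read from it, and with 1 EU library there is no replicate check.

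Histone peaks were wider than other peaks by median in every library but normoxia replicate 2, and nearly all lay in 1 exon block. Their median width was 237 bases in the EU library, 245 and 320 under hypoxia, and 193.5 and 148 under normoxia, where the medians of all peaks were 199, 150 and 151, and 150 and 150, in the same order. Single-block peaks made up 88.2% of histone peaks in the EU library, 95.6% and 97.8% under hypoxia, and 100% in both normoxia libraries, where the lowest and highest shares over all peaks of a library were 63.3% and 90.1%. In replication-dependent genes, whose median span was 495.5 bases, the median share of the span covered by peaks was 37.9% in the EU library, 50.6% and 62.7% under hypoxia, and 48.3% and 29.8% under normoxia. In those with a span of at most 1 kb, a limit chosen after seeing the data, it was 63.9% in the EU library, 50.9% and 63.9% under hypoxia, and 53.2% and 29.8% under normoxia. Peaks so wide in genes so short say little of where in the mRNA a methylated base lies. The median peak centre stood at 50.6% of the span in the EU library, 44.6% and 39% under hypoxia, and 41.9% and 44.7% under normoxia.

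**Figure D5:**
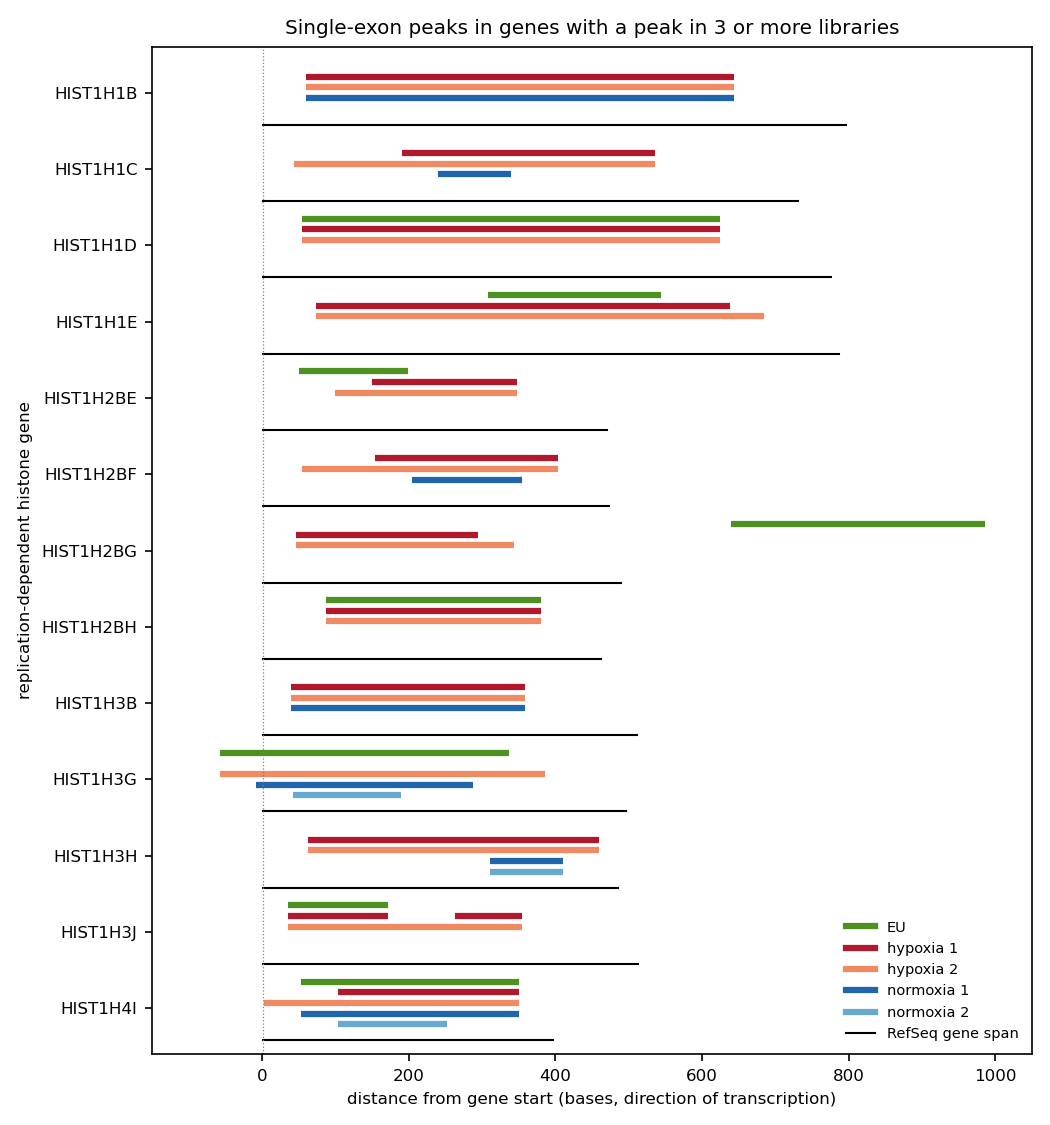
Single-exon peaks along the replication-dependent histone genes with a peak in 3 or more libraries and a span of at most 1 kb, by distance in bases from the gene start. Bars are peaks of the EU, hypoxia and normoxia libraries, and thin black lines are RefSeq gene spans. Peaks of HIST1H1B, HIST1H1D, HIST1H2BH and HIST1H3B share both bounds between the libraries that list them, the normoxia peaks of HIST1H3H lie inside its hypoxia peaks, and the EU peak of HIST1H2BG lies past the end of the gene.

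Between most pairs of libraries, histone peaks were overlapped in larger shares than all peaks. Of the 45 histone peaks of hypoxia replicate 1, 36 were overlapped by at least 1 base by a peak of hypoxia replicate 2 (80%, exact binomial 95% interval 65.4 to 90.4), against 47.4% of all peaks, and 11 (24.4%) had identical bounds, against 5.94%. Of the 12 histone peaks of normoxia replicate 1, 11 (91.7%) were overlapped in hypoxia replicate 1, against 52.8% of all its peaks, and 5 (41.7%) in normoxia replicate 2, against 18.4%. Of the 17 histone peaks of the EU library, 11 (64.7%) were overlapped in each hypoxia library, against 15.6% and 29.7% of all its peaks, and 5 (29.4%) and 6 (35.3%) in the normoxia libraries, against 2.3% and 15.1%. The EU library gave exceptions. There 28.9% of histone peaks of hypoxia replicate 1 were overlapped, against 28.4% of all its peaks, and 33.3% of those of normoxia replicate 1, against 55.7%. Replication-dependent peaks alone, without the several peaks of H2AFX, were overlapped in the EU library at 23.5% and 23.1% for hypoxia replicates 1 and 2, against 28.4% and 23.4% of all peaks, and at 20% for normoxia replicate 1. Those of hypoxia replicate 1 were overlapped in normoxia replicate 2 at 5.88%, against 7.88% of all its peaks. Wide peaks in short genes overlap more readily, and the part that width had in these shares was not tested.

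The start of the mRNA is shown for 6 genes to set the edges of peaks beside the sequence. The windows are bases 21 to 50 of the RefSeq transcript in GRCh38.p14, with the first ATG in capitals. They lie on the minus strand at chr6:26216639-26216668 (HIST1H2BG), chr6:26032050-26032079 (HIST1H3B), chr6:26250586-26250615 (HIST1H3F), chr6:26271364-26271393 (HIST1H3G) and chr6:26027234-26027263 (HIST1H4B), and on the plus strand at chr6:27139302-27139331 (HIST1H4I).
HIST1H2BG: actgctgttattgttttctgacagcATGcc
HIST1H3B: gcttttctgtggttttgccATGgctcgtac
HIST1H3F: acccattcctATGgcacgcacgaagcaaac
HIST1H3G: tagtctgagATGgcccgcaccaagcagact
HIST1H4B: gctggttagacATGtctggtcgcggcaaag
HIST1H4I: cttgataATGtcaggacgcggcaaaggagg

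Of these, HIST1H2BG, HIST1H3B, HIST1H3F and HIST1H4B had peaks whose first base was the A of that ATG. Among 73 single-exon peaks in the 28 members with an ATG in the first 50 bases, 11 peaks in 6 genes began exactly at the first ATG. A further 13 began upstream of it and 49 downstream. Whether the first ATG is the start codon was not tested, so these counts do not set peak edges beside start codons. The 3 peaks of HIST1H3B began there in both hypoxia libraries and in normoxia replicate 1, and those of HIST1H3F in the EU library and hypoxia replicate 2. HIST1H3G and HIST1H4I did not follow this, with peaks that began at bases -57, -8 and 42 and at bases 3, 53 and 103. The sources used here do not give the transcript models of the peak calling, and whether these edges are edges of a model was not tested. The core of the m6A consensus, searched as GGAC followed by A, C or T on the transcribed strand, was in none of the 38 first-50-base windows of members, and in 14.5% of the 35116 windows of all genes. That says only that these letters are not in this window, which is a small part of each mRNA.

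Upstream sequence differed by class. Promoters of 4 genes of different classes and of the variant H2AFX are shown, since histone classes are known for class-specific elements. Each run is the 150 bases before the RefSeq start in GRCh38.p14, read in the direction of transcription, on the minus strand at chr6:27867589-27867738 (HIST1H1B) and chr6:26123927-26124076 (HIST1H2BC), on the plus strand at chr6:27809901-27810050 (HIST1H3H) and chr6:27139132-27139281 (HIST1H4I), and on the minus strand at chr11:119095466-119095615 (H2AFX). Capitals mark matches on either strand to 5 motifs: AAACACA, the H1 box, ATTTGCAT, the octamer bound by OCT1, GGTCCG, of the H4 subtype element, CCAAT, bound by NF-Y, and TATAAA, the TATA box.
HIST1H1B: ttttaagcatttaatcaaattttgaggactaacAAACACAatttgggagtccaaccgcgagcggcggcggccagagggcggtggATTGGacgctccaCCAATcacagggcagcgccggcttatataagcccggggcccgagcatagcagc
HIST1H2BC: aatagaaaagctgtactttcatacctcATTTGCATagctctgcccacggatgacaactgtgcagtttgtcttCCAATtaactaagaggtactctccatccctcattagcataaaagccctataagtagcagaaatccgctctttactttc
HIST1H3H: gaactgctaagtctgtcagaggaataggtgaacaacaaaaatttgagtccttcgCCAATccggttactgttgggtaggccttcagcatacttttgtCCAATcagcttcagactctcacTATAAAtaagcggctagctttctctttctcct
HIST1H4I: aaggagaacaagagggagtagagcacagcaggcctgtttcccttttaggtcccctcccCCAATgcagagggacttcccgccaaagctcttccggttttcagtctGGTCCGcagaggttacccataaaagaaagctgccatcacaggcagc
H2AFX: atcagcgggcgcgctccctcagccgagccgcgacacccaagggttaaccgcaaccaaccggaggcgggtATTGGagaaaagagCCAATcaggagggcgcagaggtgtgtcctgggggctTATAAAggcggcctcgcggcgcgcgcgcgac

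Matches were counted in the 250 bases before the start. Class counts are of replication-dependent members with a RefSeq promoter, and the 3 variant members with one are counted apart. AAACACA was in 4 of 4 H1 members and in no other member with a RefSeq promoter, where 4.82% of all 35116 promoters held it. GGTCCG was in 5 of 5 H4 members, against 9.43% of all promoters, and in 1 H2B, 1 H3 and 1 variant member. ATTTGCAT was in 8 of 12 H2B members and 3 of 5 H2A members and in no other, against 1.63% of all promoters. CCAAT was in every replication-dependent H1, H2A, H2B and H3 member with a RefSeq promoter, against 32% of all promoters. It was in 1 of 5 H4 members and in 2 of 3 variant members. TATAAA was in 2 of 4 H1, 4 of 5 H2A, 7 of 12 H2B, 6 of 9 H3 and 2 of 5 H4 members, against 10.7%. Of the variant members, 2 of 3 held TATAAA. Matches of different motifs overlapped in 2 members, HIST1H3F and HIST2H2BE. These matches describe the genes and are no measure of their methylation.

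Genes that process histone mRNA, carry histones or act in S phase were counted beside the histone genes. Of 16 genes of histone mRNA processing, 3 were listed in the EU library, 3 and 5 under hypoxia, and 1 and 2 under normoxia, and none of the 6 with a peak under hypoxia or normoxia was hypoxia-only, where 15.3% of all genes were. SLBP, which binds the stem-loop of histone mRNA, had no peak in the EU library, 4 and 2 peaks in the hypoxia libraries (2.8e-06 and 1.5e-07), and 1 and 0 in the normoxia libraries (6.8e-07). Of 17 histone chaperones, 6 were listed in the EU library, 3 and 9 under hypoxia, and 0 and 1 under normoxia. Of the 10 with a peak under hypoxia or normoxia, 2 were hypoxia-only, near the 15.3% of all genes, so nothing about chaperones is read from it. The 2 were ANP32E and NAP1L4. ANP32E, the chaperone that removes H2A.Z, had 7 peaks in the EU library and 4 in each hypoxia library. NAP1L4, an H2A and H2B chaperone, had 2 and 4 peaks in the hypoxia libraries.

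Of 24 S phase genes, 7 were listed in the EU library, 8 and 13 under hypoxia, and 2 and 1 under normoxia. Of the 14 with a peak under hypoxia or normoxia, 5 were hypoxia-only, against 15.3% of all genes. They were MCM4, of the replicative helicase, PCNA, the sliding clamp, and RRM2, TK1 and TYMS, of deoxynucleotide supply. The share of cells in S phase was not measured, and its part in the histone counts was not tested.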

How the data were processed

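The 44 members and the gene lists were chosen with earlier results of these data known. Per the submitters' processing notes reads were aligned with STAR to hg38. The sources used here do not name the peak caller, its threshold, its use of the inputs, its annotation or its handling of strand. Each deposited list has 12 columns without a header, and column 5, ascending from 0 to 0.013, was taken as the authors' p-value of a peak, from its values alone. It ranks peaks within a list only. Peaks with a p listed as 0, 11 in the EU library and 1 and 4 in hypoxia replicates 1 and 2, stand in the order of the list. Histone genes have near-identical copies among which reads may have been split, and the sources used here do not say how libraries were primed, which matters for mRNAs without poly(A) tails.

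Coordinates are 1-based. All 44 names were matched to RefSeq GRCh38.p14 by symbol and position, within 10 kb, and strand was the same for 38 of the 38 with a RefSeq strand. Overlap needed at least 1 shared base in an exon block on the same strand. Spans are RefSeq gene spans, introns included. Promoter rows were found for 38 members. Depth is unknown, so intervals (exact binomial, 95%) cover counting error only. Python 3.11.15, numpy 2.4.6, scipy 1.17.1 and matplotlib 3.10.9 were used, and peak matching was tested on simulated data.

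Genes were named by a rule: each variant member, each replication-dependent member with a peak in 3 or more of the 5 libraries, the 5 with the smallest p in each library, and those listed under normoxia alone, in the EU library alone or in a condition list alone. Other members named were chosen after their values were seen. Alternatives used the first 50% of each list by p, used only peaks of the median width of 151 bases or more, shortened lists to 212 peaks, required a same-strand protein-coding match, required an overlap of 50% of the shorter peak, used the condition lists, or left out each library. A limit of 1 kb on gene span was added after seeing the data. One marker counted in a list is not reported here by name.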

Additional observations from a re-analysis of the deposited data

Results flagged for a closer look

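On the spans of HIST1H2AD and HIST1H3D, 8 peaks of the 5 libraries are listed under the name RP1-34B20.21, and so lie outside the histone names counted in the report. They were 1 peak in the EU library, 2 in each hypoxia library, and 2 and 1 in normoxia replicates 1 and 2. On HIST1H2AD, a replication-dependent H2A gene with no peak under its own name, the deposited p was 2.2e-07 and 4.2e-09 in hypoxia replicates 1 and 2 and 1.5e-06 in normoxia replicate 1. The RefSeq span of HIST1H3D takes in that of HIST1H2AD on the minus strand of chromosome 6. Of the 8 peaks, 5 lay on HIST1H3D alone, at least 1 in each library, and 3 lay on both spans and cannot be given to 1 of these genes.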

How the results depend on the processing

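Of 71 alternatives over 11 results, 42 kept the value within its limits and 29 moved it. Some limits were wide, such as 2.49 percentage points around a median share of peaks of 0.768%, so the count of values kept is no measure of stability. Shortening each library to 212 peaks left 24 of 43 histone genes with a peak, 2 hypoxia-only against 20, 1 normoxia-only against 0, 0 of 3 in all 4 libraries, 10.5% of replication-dependent genes in both hypoxia libraries against 68.4%, and 33.3% of replicate overlap against 80%. It raised the median share of peaks over the 5 libraries to 5.66% against 0.768% and set the median peak centre at 40.2% of the span against 44.6%. Keeping the 50% with the smallest p gave 9 hypoxia-only genes, 0 in all 4 libraries, 3 listed in EU alone against 1, 31.6% in both hypoxia libraries, 42.9% of replicate overlap, a median covered share of 62.6% against 48.3% and a centre of 41.2%. Wide peaks alone gave 1 gene in all 4 libraries and a covered share of 60.9%. The condition lists gave 31 hypoxia-only, 3 normoxia-only and 7 shared genes and a centre of 50.6%. A same-strand protein-coding match left 0 genes in EU alone. The causes were not tested beyond the construction of each alternative, since shorter lists hold fewer genes.

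Leaving out each library in turn gave 20 to 27 hypoxia-only genes, 0 to 1 normoxia-only, 3 to 8 in all libraries kept, and 1 to 4 in EU alone. With 1 hypoxia library left out, 78.9% to 89.5% of replication-dependent genes had a peak in the one kept. The 8 came without normoxia replicate 2, the 4 without hypoxia replicate 2. The median p-rank of histone peaks was 33.9% of the list. It was 32.9% with wide peaks, 33.9% with a same-strand match and 27% in the condition lists. Its limit, the spread between replicates, was wide at 24.6 percentage points, and shortened lists were not run for it. That it kept within this limit therefore says little. No paired analysis was possible because no result comes from a test.

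Presence in a list measures neither the extent of methylation nor expression. Genes of a span up to 1 kb, an alternative chosen after seeing the data, had a median covered share of 53.2%. Depth is unknown, normoxia rests on lists of 212 and 1563 peaks, and near-identical histone copies may share reads.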

Other observations

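The condition lists did not always follow the libraries. HIST1H1D had a peak in both hypoxia libraries and none in a normoxia library, yet it was absent from the hypoxia condition list and present in the normoxia condition list (deposited p 4.5e-06). HIST1H2BH showed the same pattern (0.0016 in the normoxia condition list). HIST1H3B and HIST1H2BC, at ranks 2 and 3 of normoxia replicate 1, were absent from the normoxia condition list. HIST1H2BL, at 1.4e-09 and 3.2e-13 in the hypoxia libraries, was listed at 0.0016 in the hypoxia condition list. The sources used here do not say how these lists were made.

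The EU peak of HIST1H2BD, at chr6:26171059-26171252, lay inside the gene near the end of its RefSeq span of 13229 bases, with the hypoxia replicate 2 peak at chr6:26158243-26158436 near the start. Other peaks carry a histone name away from that gene's span. A HIST1H2BN peak of hypoxia replicate 2, at chr6:27838009-27838407, lay before the start of that gene and overlapped the span of HIST1H2AK, which is on the other strand. The peak of HIST1H1PS1 in the EU library, in 2 exon blocks, ran past the end of a pseudogene of 206 bases.

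HIST1H4E, an H4 gene, had a peak in hypoxia replicate 1 (6.8e-06) and normoxia replicate 1 (0.0018) and in neither of the other replicates, and HIST1H4H had its only peak in hypoxia replicate 1 (4.6e-07).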
